A study of Mus musculus with 3 samples.

Results

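The genes of fatty acid beta-oxidation and a set of targets and regulators of the peroxisome proliferator-activated receptors (PPARs) were followed in mouse colon cells. The 35 members were chosen by name, but with earlier results of these data known. All 35 were found among the 32285 genes of the matrices. By their textbook location 19 members work in mitochondria, 7 in peroxisomes and 9 elsewhere. The cells came from the colon of germ-free mice in 3 groups, with 1 droplet library per group. One group was colonized with a BT mutant and another with BT WT, and the third consisted of germ-free mice given PBS, taken here as phosphate-buffered saline. The labels spell out neither BT nor the mutation, and they give no strain of mouse, sex, age, time after colonization or number of animals per library.

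Fatty acids are activated to acyl-CoA esters, carried into mitochondria as carnitine esters, and shortened there in repeated rounds that feed electrons to the respiratory chain. Peroxisomes shorten the very long and branched chains first. Absorptive cells of the colon, the colonocytes, burn fatty acids such as butyrate made by gut bacteria. PPARs are nuclear receptors that bind fatty acids and switch on many of these genes, together with Pdk4, Plin2 and Angptl4.

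The libraries stood apart before any member was compared. The BT mutant, BT WT and PBS libraries held 6138, 7070 and 3198 cells after filtering, with 54943483, 55436776 and 42003444 UMIs (unique molecular identifiers, each marking a captured transcript) over all barcodes. A total of 39 barcodes occurred in 2 or more libraries, 26 of them among kept cells. Cells were clustered with the members left out, and a class is called like a cell type by its marker genes. Colonocyte-like cells numbered 2859 in the BT mutant library, 3236 in the BT WT library and 381 in the PBS library. Their median depth was 3410, 3963 and 20658 UMIs per cell, their median share of mitochondrially encoded UMIs 18.5%, 18.3% and 16.1%, and their summed colonocyte markers reached 37324, 31994 and 49291 CPM (UMIs scaled so that the total of the class and library is 1e+06), against 1470, 1384 and 2560 CPM in B-like cells. The class consisted of 7 clusters that the libraries shared unevenly. Cluster 15 held 340 PBS cells and no other cell, clusters 1 and 4 were mostly BT WT, and clusters 2, 7 and 8 were mostly BT mutant. A further 721 PBS cells with a median of 872 UMIs, 22.5% of that library, fell into an unnamed low-depth cluster (cluster 6), against 26 and 28 cells of the BT mutant and BT WT libraries. Cluster 10 had over 100 cells of every library, colonocyte as its best-scoring class and no marker-based name. It was led by Gsdmc4, Aqp4 and Gsdmc2, held 307, 195 and 115 cells, and is called the shared cluster here. With 1 library per group no test was possible, and no difference below has a replicate check. A difference between libraries cannot be told apart from one between animals or preparations. Intervals are exact 95% intervals of the UMI counts and cover counting error only.

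In colonocyte-like cells the members were mostly lower in the BT WT library than in the PBS library. Log2 ratios are of CPM plus 10, for members with at least 20 UMIs over the libraries compared, and a member is called lower or higher at a ratio of 1.5-fold. Of 34 members with enough UMIs, 19 were lower, where 7.34% of the 11710 genes compared were lower. Another 2 members were higher, where 14.0% of all genes were higher. The median log2 ratio was −0.67 over the members and 0.11 over all genes. The 19 mitochondrial members had a median of −0.75 with 13 lower and none higher, and the 7 peroxisomal members a median of −0.81 with 4 lower and none higher. Summed over the mitochondrial members, the level was 1947 CPM in the BT mutant library, 1530 CPM in the BT WT library and 2602 CPM in the PBS library. The peroxisomal members summed to 379, 283 and 499.6 CPM in the same order. Acot1, a cytosolic thioesterase, had 4, 8 and 5 UMIs and was the member left out. With cells limited to 10% mitochondrially encoded UMIs, 12 members were called in place of 21, where 9.54% of all genes were lower and 23.3% higher, the medians were −0.38 and −0.49, and Acadvl and Hadha stood above 0. Among cells of at least 10000 UMIs, described further on, most of the enzyme differences were small, while Pdk4, Angptl4, Acot2, Ehhadh, Acaa1b, Plin2 and Ppargc1a still differed by 1.5-fold.

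**Figure D1:**
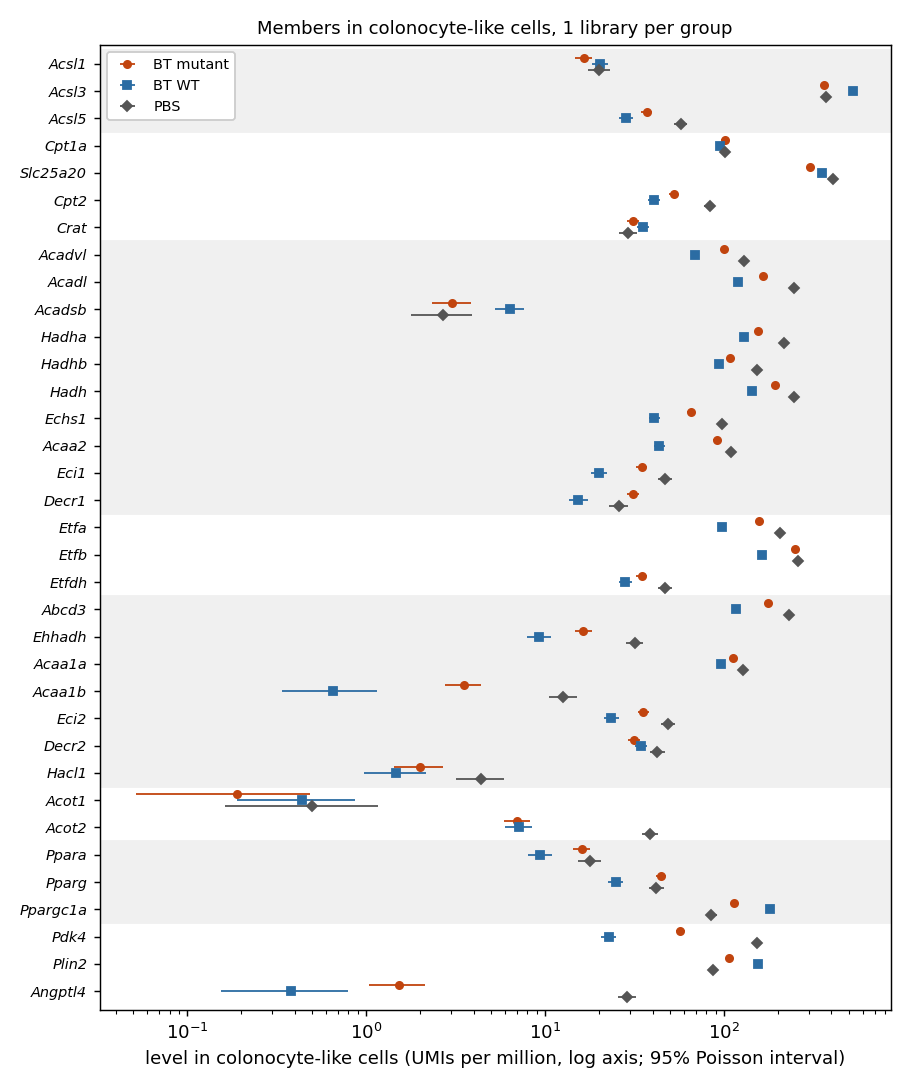
Level of each member in colonocyte-like cells, in CPM on a log axis, with BT mutant as circles, BT WT as squares and PBS as diamonds; bars are exact 95% Poisson intervals of 1 library each. The BT WT points lie left of the PBS points for most enzymes and for Pdk4 and Angptl4, and right of them for Acsl3, Plin2 and Ppargc1a.

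Over all colonocyte-like cells the synthetases that activate fatty acids differed in direction. Acsl3, which is found on lipid droplets and the endoplasmic reticulum, had 365 CPM in BT mutant, 528 CPM in BT WT and 374 CPM in PBS colonocyte-like cells. BT WT was thus the highest library, by 1.41-fold over PBS (1.36 to 1.46), which is under the 1.5-fold limit. Acsl5, a synthetase abundant in intestine, had 37.2, 28.4 and 57.5 CPM in BT mutant, BT WT and PBS. It was 2.02-fold lower in BT WT than in PBS (1.79 to 2.28). Acsl1 had 16.5, 20.5 and 20.2 CPM and differed little. Among cells of at least 10000 UMIs Acsl3 had 217, 299.7 and 366 CPM, so PBS was the highest library there. In those cells BT WT was 0.818-fold of PBS for Acsl3 (0.773 to 0.866), 0.704-fold for Acsl1 and 0.682-fold for Acsl5.

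Of the carnitine shuttle, Cpt2 alone was called. Cpt2, the inner-membrane acyltransferase, had 52.7 CPM in BT mutant, 40.8 CPM in BT WT and 83.3 CPM in PBS, so BT WT was 2.04-fold lower than PBS (1.85 to 2.26). Cpt1a, the regulated entry step of the outer membrane, had 101, 95.4 and 102 CPM. Slc25a20, the carrier of acylcarnitines, had 304, 354 and 406 CPM, and Crat, which makes acetylcarnitine, 31.0, 35.5 and 29.3 CPM. Over all colonocyte-like cells the libraries were thus nearly level for Cpt1a and furthest apart for Cpt2. Among cells of at least 10000 UMIs this was not so, and none of the 4 was called in BT WT against PBS. There BT WT was higher than PBS by 1.41-fold for Cpt1a (1.29 to 1.55) and 1.49-fold for Crat (1.26 to 1.77). Slc25a20 was 1.03-fold higher (0.978 to 1.08) and Cpt2 1.17-fold lower (1.04 to 1.32).

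Over all colonocyte-like cells, 8 of the 10 enzymes of mitochondrial oxidation were lower in BT WT than in PBS. The acyl-CoA dehydrogenases open each round: Acadvl, for the longest chains, had 101, 69.1 and 130 CPM in BT mutant, BT WT and PBS, and Acadl, for long chains, 166, 120 and 248 CPM. Acadsb, for short branched chains, was low, at 3.05, 6.37 and 2.70 CPM. Hadha and Hadhb encode the subunits of the trifunctional protein, which carries out the remaining steps on long chains. Hadha had 156, 130 and 218 CPM in BT mutant, BT WT and PBS, and Hadhb 109, 94.5 and 153 CPM. Both were lowest in BT WT and highest in PBS. The enzymes of shorter chains followed the same order: Echs1, a hydratase, had 66.0, 41.0 and 97.5 CPM, Hadh, a dehydrogenase, 193, 143 and 248 CPM, and Acaa2, the thiolase that cuts off acetyl-CoA, 91.6, 43.7 and 109 CPM. Acaa2 was 2.50-fold lower in BT WT than in PBS (2.28 to 2.74). Eci1 and Decr1 handle the double bonds of unsaturated chains. Eci1 had 34.8, 20.2 and 47.0 CPM and was lower in BT WT than in PBS by 2.33-fold (2.03 to 2.68). Decr1 had 31.2, 15.4 and 26.0 CPM, with BT mutant the highest library and a log2 ratio of −0.50 for BT WT over PBS. None of the 10 was called in BT WT against PBS among cells of at least 10000 UMIs. There the 8 lower enzymes lay between 0.762-fold of PBS for Acaa2 and 1.06-fold for Hadhb.

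Electrons leave the dehydrogenases through the electron transfer flavoprotein. Its subunits Etfa and Etfb had 158 and 250.3 CPM in BT mutant, 98.4 and 164 CPM in BT WT, and 205 and 259 CPM in PBS, and both were called lower in BT WT than in PBS. Etfdh, which passes the electrons to ubiquinone, had 34.8, 28.2 and 46.9 CPM in BT mutant, BT WT and PBS. Its ratio of BT WT over PBS, which includes the addition to CPM, fell short of the 1.5-fold limit. Without that addition Etfdh was more than 1.5-fold lower in BT WT than in PBS.

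Hadha and Hadhb lie head to head on chromosome 5 (GRCm38), Hadha at 30118304 to 30155162 on the minus strand and Hadhb at 30155248 to 30184593 on the plus strand, so that their starts are 86 bases apart. The 85 bases between them are shown because the subunits share this stretch. Their order of libraries over all colonocyte-like cells was also that of Acadvl, Acadl, Echs1, Hadh, Acaa2 and Eci1. In cells of at least 10000 UMIs BT WT was highest for both. There Hadha had 210, 226 and 222 CPM in BT mutant, BT WT and PBS, and Hadhb 148, 164 and 155 CPM. Whether the stretch bears on these levels was not tested. It is read from RefSeq on GRCm38.p6, chr5:30155163-30155247, plus strand, 5′ to 3′, with no capitals.
Hadha-Hadhb: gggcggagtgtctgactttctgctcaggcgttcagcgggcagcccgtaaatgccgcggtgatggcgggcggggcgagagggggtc

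Of the 7 peroxisomal members, Abcd3, Ehhadh, Acaa1b and Eci2 were lower in BT WT than in PBS, and Acaa1a, Decr2 and Hacl1 were not called. Abcd3, a transporter of the peroxisomal membrane, had 177 CPM in BT mutant, 117 CPM in BT WT and 231 CPM in PBS. Ehhadh, the bifunctional enzyme of the peroxisome and a PPAR target in rodent liver, had 16.4, 9.28 and 31.8 CPM, a 3.43-fold lower level in BT WT than in PBS (2.83 to 4.15). Eci2, an isomerase, had 35.5, 23.6 and 48.8 CPM. The peroxisomal thiolases parted. Acaa1a had 113, 96.0 and 129 CPM, and Acaa1b had 3.52, 0.659 and 12.7 CPM from 74, 12 and 127 UMIs. Acaa1b was 19.3-fold lower in BT WT than in PBS (10.7 to 38.3). The transcripts of the 2 genes are 86.9% identical over their length and 70.0% identical over the last 300 bases, where the 3′ reads fall, so some reads may have been assigned to the wrong gene or dropped. Decr2 had 31.7, 34.4 and 42.6 CPM, and Hacl1, a lyase of alpha-oxidation, 2.0, 1.48 and 4.40 CPM. In cells of at least 10000 UMIs Ehhadh and Acaa1b were still called lower, and Abcd3 and Eci2 were not. There BT WT was 0.808-fold of PBS for Abcd3, 0.749-fold for Eci2 and 1.14-fold for Acaa1a.

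Acot2, a mitochondrial thioesterase that releases free fatty acids, was low in both colonized libraries. It had 7.0 CPM in BT mutant, 7.14 CPM in BT WT and 38.9 CPM in PBS (147, 130 and 389 UMIs). BT WT was 5.45-fold lower than PBS (4.46 to 6.70) and BT mutant 5.56-fold lower (4.59 to 6.77). BT mutant over BT WT stood at a log2 ratio of −0.01.

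Of the PPAR targets outside the oxidation pathway, Pdk4 and Angptl4 were lower in BT WT than in PBS and Plin2 was higher. Pdk4, a kinase that turns off pyruvate dehydrogenase and so favours fat over glucose as fuel, had 57.3 CPM in BT mutant, 22.7 CPM in BT WT and 153 CPM in PBS (1204, 414 and 1529 UMIs). It was 6.73-fold lower in BT WT than in PBS (6.03 to 7.51). Angptl4, a secreted inhibitor of lipoprotein lipase, had 1.52, 0.384 and 28.8 CPM from 32, 7 and 288 UMIs. It was thus 74.9-fold lower in BT WT than in PBS, with a wide interval of 35.9 to 188 that reflects 7 UMIs. Plin2, which coats lipid droplets, went the other way with 108, 156 and 87.2 CPM, and BT WT was 1.79-fold higher than PBS (1.66 to 1.94). Known targets of the same receptors therefore differed in direction.

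The regulators did not move together. Ppara, the receptor that drives oxidation in liver, had 16.1, 9.44 and 17.8 CPM in BT mutant, BT WT and PBS, and Pparg, a PPAR known from colon epithelium, 44.6, 24.9 and 42.1 CPM. Both were lowest in BT WT. Their log2 ratios over PBS, which include the addition to CPM, were −0.52 and −0.58 and fell just short of the 1.5-fold limit. Without that addition both were more than 1.5-fold lower in BT WT than in PBS. Ppargc1a, a coactivator of PPARs and of mitochondrial genes, was instead highest in BT WT, at 114, 182 and 85.3 CPM. Also without the addition to CPM, Ppargc1a was 2.14-fold higher in BT WT than in PBS (1.98 to 2.31). Among cells of at least 10000 UMIs Ppara had 21.7, 16.4 and 18.1 CPM in BT mutant, BT WT and PBS, and Pparg 59.9, 43.1 and 42.6 CPM. There BT WT was near PBS, at 0.906-fold for Ppara (0.701 to 1.17) and 1.01-fold for Pparg (0.862 to 1.18).

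RefSeq promoter windows (GRCm38.p6, 250 bases before to 50 after a start) were matched for 31 members, giving 35 windows, and were searched on both strands. The nuclear receptor core site AGGTCA was in 17.1% of the members' windows and in 16.3% of all 32851 windows. The spaced repeat of that site, AGGNCANAGGNCA, was in none of the members' windows and in 0.381% of all. CCAAT was in 54.3% of the members' windows and in 37.4% of all. A match is a description of letters, and no match says only that the letters are not in the window. The stretches upstream of Pdk4, Plin2 and Ppargc1a are shown because these members differed in opposite directions and were also called among deep cells. All are on the minus strand of GRCm38.p6 and read 5′ to 3′: Pdk4 is chr6:5496310-5496528 with CCAAT, here as its complement, in capitals, Plin2 is chr4:86670061-86670309 with AGGTCA as its complement in capitals, and Ppargc1a is chr5:51567727-51567975 with TGACGT, part of a cAMP response element, as its complement in capitals.
Pdk4: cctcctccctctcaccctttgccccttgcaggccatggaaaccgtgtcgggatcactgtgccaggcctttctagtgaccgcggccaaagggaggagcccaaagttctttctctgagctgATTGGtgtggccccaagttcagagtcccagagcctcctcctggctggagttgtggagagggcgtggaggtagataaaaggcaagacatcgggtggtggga
Plin2: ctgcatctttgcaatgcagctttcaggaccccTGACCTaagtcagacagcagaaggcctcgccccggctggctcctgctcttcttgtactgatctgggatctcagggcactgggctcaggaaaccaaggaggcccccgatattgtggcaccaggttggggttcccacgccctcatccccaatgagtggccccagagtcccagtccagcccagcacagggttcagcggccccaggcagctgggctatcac
Ppargc1a: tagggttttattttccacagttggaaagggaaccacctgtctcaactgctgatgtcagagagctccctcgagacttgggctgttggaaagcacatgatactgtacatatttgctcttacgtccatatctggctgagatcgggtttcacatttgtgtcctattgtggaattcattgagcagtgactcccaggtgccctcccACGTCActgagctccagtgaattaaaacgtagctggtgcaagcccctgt

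The summed enzyme levels were higher in the deepest cells than in shallower ones inside each library. In cells under 3000 UMIs the mitochondrial members summed to 844 CPM in BT mutant, 1096 CPM in BT WT and 1899 CPM in PBS. From 3000 to 10000 UMIs they summed to 1014, 1049 and 1431 CPM. In cells of 10000 UMIs or more they summed to 2593 CPM in BT mutant, 2477 CPM in BT WT and 2648 CPM in PBS from 457, 240 and 280 cells. The libraries were thus closest to each other among deep cells. Deep cells held 12690326 of the 21010719 UMIs of the class in BT mutant and 6085178 of 18211709 in BT WT. In PBS they held 9596171 of 10001025. Malat1, a nuclear RNA, was lower in deep cells at 17960, 36225 and 57861 CPM, against 86419, 94065 and 91280 CPM under 3000 UMIs. The part of cell type, cell integrity and depth in these levels was not tested. The deep cells also came from different clusters: cluster 8 gave 433 of the BT mutant and 161 of the BT WT cells, and cluster 15 gave 277 of the PBS cells.

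**Figure D2:**
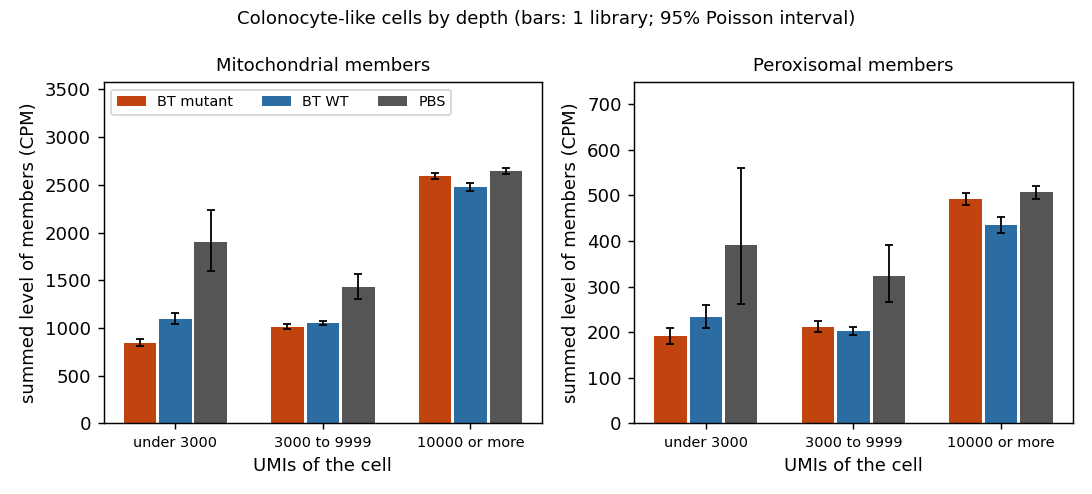
Summed level of the mitochondrial (left) and peroxisomal (right) members in CPM, by the UMIs of the cell, in colonocyte-like cells of the BT mutant, BT WT and PBS libraries; error bars are exact 95% Poisson intervals. Every library has its highest bar at 10000 UMIs or more, where the mitochondrial bars stand at 2593, 2477 and 2648 CPM.

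Among these deep cells, a set chosen after the values were seen, 5 of 34 members were lower and 2 higher in BT WT than in PBS, where 3.51% and 8.51% of all genes were. The median was −0.05 for the mitochondrial and −0.32 for the peroxisomal members. Acadl stood at 242 CPM in BT mutant, 246 CPM in BT WT and 255 CPM in PBS, Hadha at 210.2, 226 and 222 CPM, and Acadvl at 139, 133 and 133 CPM. These 3 dehydrogenation and trifunctional members were close to level, while Acaa2, at 133, 85.6 and 112 CPM, and Etfa, at 218, 170 and 209 CPM, stayed lowest in BT WT without reaching 1.5-fold against PBS. The 5 lower members were Pdk4, Angptl4, Acot2, Ehhadh and Acaa1b. Pdk4 had 81.2, 38.8 and 153 CPM, 3.94-fold lower in BT WT than in PBS (3.44 to 4.55). Angptl4 had 29, 2 and 280 UMIs, or 2.29, 0.329 and 29.2 CPM. Acot2 had 9.85, 11.3 and 38.6 CPM, and Ehhadh 20.7, 12.5 and 31.9 CPM. The 2 higher members were Plin2 and Ppargc1a. Plin2 had 128, 192 and 89.6 CPM, 2.14-fold higher in BT WT than in PBS (1.96 to 2.34), a wider gap than over all colonocyte-like cells. Ppargc1a had 89.8, 143 and 85.3 CPM, 1.68-fold higher in BT WT than in PBS (1.52 to 1.85).

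Fat-cell RNA was present in the PBS library, which held 37 fat-like cells, against 0 in BT mutant and 1 in BT WT. Of 10 fat-cell markers, 6, 8 and 9 had a UMI in colonocyte-like cells of BT mutant, BT WT and PBS, at a summed 31.1, 16.1 and 164 CPM. Lep was at 0 in all 3 libraries, and Adipoq was at 0, 0.0549 and 1.30 CPM. At its marker level, RNA with the makeup of the fat-like cells would carry 0.0927 CPM of Angptl4, 0.0913 CPM of Pdk4, 0.0844 CPM of Acot2 and 0.452 CPM of Plin2 into the PBS colonocyte-like cells. The measured levels there were 28.8, 153, 38.9 and 87.2 CPM. The part of fat-cell RNA in these levels was not tested.

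In the shared cluster no member was called in BT WT against PBS, and few genes of any kind were. In its cells, with medians of 24065, 23666 and 36114 UMIs in BT mutant, BT WT and PBS, 0 of 34 members were lower and 0 higher in BT WT than in PBS, where 1.14% and 0.690% of all genes were. In the same cells 0 of 35 members were called in BT mutant against BT WT, where 2.02% of all genes were lower and 0.989% higher. In BT mutant against PBS 1 member was lower and none higher, where 3.30% and 1.17% of all genes were, and this was Slc25a20 at 68.9 CPM in BT mutant, 98.6 CPM in BT WT and 131 CPM in PBS. The mitochondrial members summed to 2618, 2674 and 2814 CPM, with a median log2 ratio of 0.01 for BT WT over PBS. Acadl had 159, 201 and 183 CPM there and Hadha 203, 257 and 253 CPM. Pdk4 came nearest to the limit at 18.6, 12.0 and 22.8 CPM, 1.90-fold lower in BT WT than in PBS without the pseudocount (1.42 to 2.55). Colonocyte RNA in the proportion of that cluster's colonocyte markers would carry 11.4, 5.66 and 22.9 CPM of Pdk4, which in the PBS library is near the measured level. Whether these cells held carried-over RNA or made the markers and Pdk4 themselves was not tested.

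**Figure D3:**
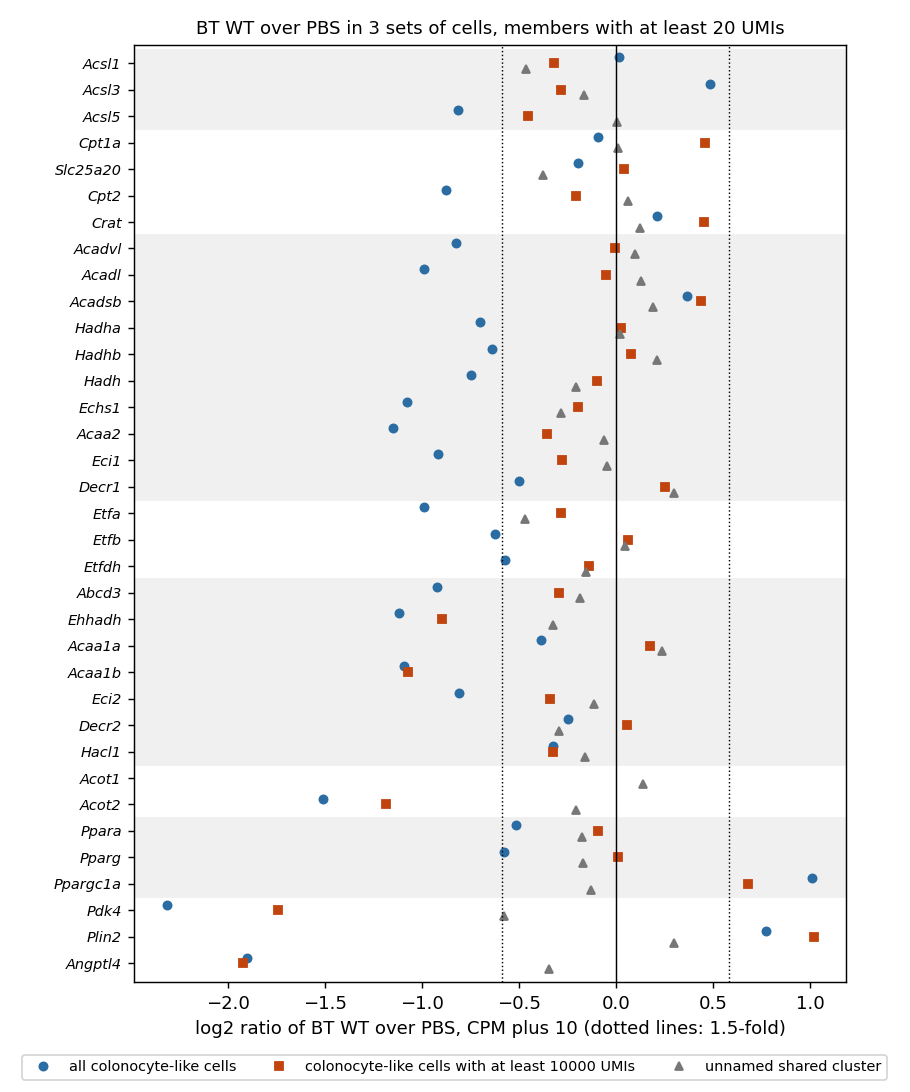
Log2 ratio of BT WT over PBS for each member with at least 20 UMIs, in all colonocyte-like cells (circles), in those with at least 10000 UMIs (squares) and in the shared cluster (triangles); dotted lines mark 1.5-fold. The circles of most enzymes lie left of the lower line, the squares and triangles mostly between the lines, and Pdk4, Angptl4, Acot2, Ehhadh and Acaa1b keep both circle and square left of it.

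BT mutant was then compared with BT WT, which shares the BT WT library with the comparison above. Over all colonocyte-like cells 5 of 34 members were higher and 1 lower, where 4.28% and 4.18% of all 12130 genes were. The higher members were Pdk4, Acaa2, Decr1, Pparg and Etfa. Pdk4 was 2.52-fold higher in BT mutant (2.25 to 2.83), Acaa2 2.10-fold (1.93 to 2.28), Decr1 2.02-fold (1.76 to 2.34) and Pparg 1.79-fold (1.60 to 2.01). Ppargc1a was the lower member, by 1.59-fold (1.51 to 1.68). The mitochondrial members had a median of 0.40 and the peroxisomal members 0.34, against −0.05 over all genes.

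Inside clusters the mitochondrial members had the opposite sign. In the 5 colonocyte-like clusters with at least 50 cells of both libraries, clusters 2, 4, 7, 8 and 12, the median log2 ratio of BT mutant over BT WT was −0.36, −0.04, −0.18, −0.09 and −0.13. The all-gene medians there were −0.06, −0.05, −0.02, −0.05 and −0.03. The pooled value of 0.40 is thus not found in any of them, and the libraries fill the clusters differently: cluster 8, whose cells have a median of 20821 UMIs, held 529 BT mutant and 190 BT WT cells. Of all members 4, 4, 4, 0 and 1 were lower and 0, 0, 1, 1 and 0 higher in clusters 2, 4, 7, 8 and 12. The share of all genes lower there was 5.70%, 6.35%, 9.28%, 2.45% and 4.76%, and the share higher 4.05%, 3.05%, 9.78%, 1.25% and 3.56%. Cpt1a, Slc25a20, Acadl, Hadha and Hadhb were below 0 in 5 of 5 clusters, with Cpt1a between −0.87 and −0.14. Plin2 was also below 0 in 5 of 5 clusters and called lower in 3, between −0.80 and −0.48. In cluster 8 Plin2 had 128 CPM in BT mutant and 194 CPM in BT WT. Pdk4 was not of 1 sign: it was higher in BT mutant in cluster 8, at 82.2 CPM against 42.1 CPM in BT WT, and in cluster 7, and lower in clusters 2, 4 and 12, where it had at most 50 UMIs per library, and of these 3 clusters reached 1.5-fold in cluster 12 alone. Among deep cells Pdk4 was 2.09-fold higher in BT mutant than in BT WT (1.82 to 2.42), and Acaa2 1.56-fold (1.41 to 1.72), the 2 members called higher where 1.77% of all genes were. Ppargc1a was 1.59-fold lower there (1.46 to 1.74), the 1 member called lower where 3.94% of all genes were.

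**Figure D4:**
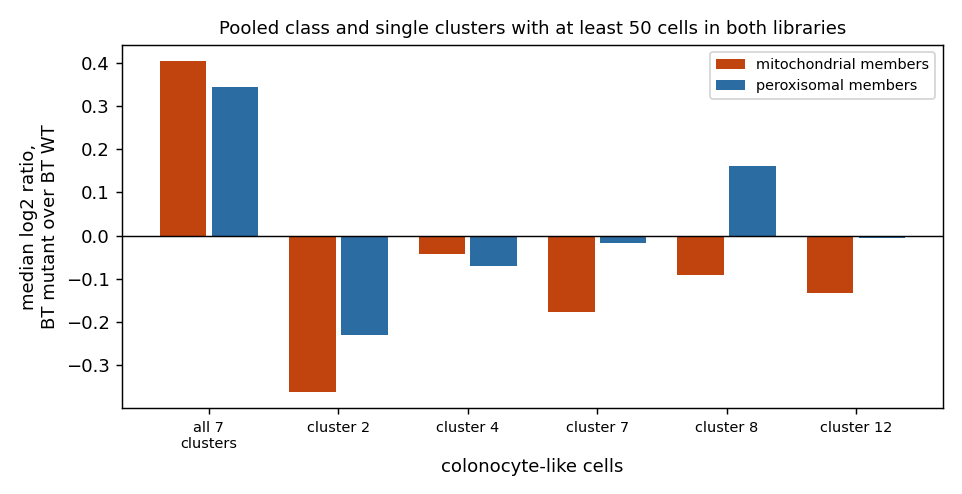
Median log2 ratio of BT mutant over BT WT for the mitochondrial and the peroxisomal members, over all 7 colonocyte-like clusters together and in each cluster with at least 50 cells of both libraries. The pooled medians are 0.40 and 0.34, and the mitochondrial medians inside clusters lie between −0.36 and −0.04.

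BT mutant over PBS, which again reuses these libraries, gave 5 lower members and none higher, where 3.98% and 6.0% of all 11675 genes were. The 5 were Pdk4, Angptl4, Acot2, Acaa1b and Ehhadh. Pdk4 was 2.67-fold lower in BT mutant than in PBS (2.47 to 2.88), Angptl4 18.9-fold (13.1 to 28.2), Acaa1b 3.61-fold (2.69 to 4.87) and Ehhadh 1.94-fold (1.66 to 2.26). The mitochondrial median was −0.35 and the peroxisomal median −0.37, but both turned to the other side of 0 at a 10% mitochondrial limit, at 0.060 and 0.022. The mitochondrial median did so too with the libraries clustered apart, at 0.066. In deep cells the mitochondrial median was −0.01, and Pdk4, Angptl4, Acot2, Acaa1b and Acsl3 were lower and Decr1 higher, where 3.66% and 5.59% of all genes were.

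Beyond colonocyte-like cells, 6 more classes had at least 50 cells in every library. The highest levels named below are among these 7 classes only. Smaller classes were left out, among them the 37 fat-like cells of PBS. All members summed to 8562 CPM in those cells, against 3816 CPM in PBS colonocyte-like cells. A total of 13 members had their highest level in the shared cluster in all 3 libraries, among them Cpt1a, Acadvl, Hadha, Hadhb, Hadh, Etfa and Pparg. Acsl3, Slc25a20, Crat, Decr2, Ppargc1a and Pdk4 were highest in colonocyte-like cells. Plin2 was highest in macrophage-like cells, at 413 CPM in BT mutant, 294 CPM in BT WT and 235 CPM in PBS, so the library order there differed from that of colonocyte-like cells. Angptl4 was highest in fibroblast-like cells, at 73.4, 61.5 and 58.6 CPM, where the colonized libraries were not below PBS. Acadsb was a fibroblast-like gene as well, with 108, 93.3 and 109.7 CPM, and Acot2 was highest in T-like cells, with 18.3, 51.4 and 55.2 CPM from 9, 77 and 52 UMIs.

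Pdk4 was lowest in the BT WT library in 5 of the 6 classes where it had at least 20 UMIs. In the shared cluster and in macrophage-like and B-like cells the amount that colonocyte RNA would carry was most or all of the PBS level. Whether cells of any class held carried-over colonocyte RNA was not tested. In fibroblast-like cells Pdk4 had 41.9 CPM in BT mutant, 11.4 CPM in BT WT and 34.3 CPM in PBS, from 108, 20 and 51 UMIs. There BT WT was 3.02-fold lower than PBS (1.77 to 5.34) and BT mutant 3.68-fold higher than BT WT (2.27 to 6.27). Colonocyte RNA at the level of the colonocyte markers would carry 3.53, 2.03 and 7.67 CPM of Pdk4 there. In macrophage-like cells Pdk4 had 13.1, 1.88 and 21.1 CPM from 15, 2 and 14 UMIs, where colonocyte RNA would carry 4.67, 2.07 and 16.4 CPM. Ehhadh was lowest in BT WT in 5 of 5 classes, though outside the epithelium it rested on few UMIs. In fibroblast-like cells 3 members were lower and 1 higher in BT WT than in PBS, where 4.39% and 5.10% of all genes were. The lower ones were Acsl1, Acot1 and Pdk4, the higher one was Ppargc1a, and the mitochondrial median was 0.02. Acot1, almost absent from colonocyte-like cells, had 32.6, 12.5 and 33.0 CPM here from 84, 22 and 49 UMIs. Acot1 and Pdk4 were the 2 members higher in BT mutant than in BT WT, with none lower, where 1.93% and 2.82% of all genes were. In BT mutant against PBS 1 member was lower and none higher, where 3.84% and 2.84% of all genes were, and this was Acot2 at 13.6 CPM in BT mutant, 20.5 CPM in BT WT and 28.3 CPM in PBS.

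B-like and macrophage-like cells showed few calls, and T-like cells more. In B-like cells Pdk4 was the 1 member lower in BT WT than in PBS, with none higher, where 2.20% and 0.402% of all genes were, at 4.41 CPM in BT mutant, 0.499 CPM in BT WT and 11.2 CPM in PBS. Colonocyte RNA would carry 2.26, 0.983 and 7.94 CPM of Pdk4 into these cells, which is most of the PBS level and more than the BT WT level. Cpt1a was higher in BT mutant B-like cells, at 40.3 CPM, than in BT WT at 19.4 CPM and PBS at 20.4 CPM. It was the 1 member called against BT WT, where 1.12% of all genes were higher and 2.35% lower. Against PBS it was the 1 higher member, where 1.74% of all genes were. Acsl3 and Acot2 were the 2 lower members, where 6.01% were, and Acsl3 stood at 0.15 with the libraries clustered apart. Acot2 had 13.8, 24.2 and 27.9 CPM in B-like cells of BT mutant, BT WT and PBS, so in both lymphocyte classes it was lowest in BT mutant. T-like cells gave 3 lower and 1 higher member in BT WT against PBS, where 6.47% and 2.82% of all genes were. They gave 3 lower and 4 higher in BT mutant against BT WT, where 8.10% and 7.85% were, and 3 lower and 1 higher in BT mutant against PBS, where 14.0% and 6.53% were. Hadh, Echs1 and Acot2 were the lower members in both comparisons of BT mutant, each with at most 10 UMIs in that library, and with the libraries clustered apart Hadh and Echs1 stood above 0 in both. Macrophage-like cells gave 2 lower and 1 higher in BT WT against PBS, where 8.48% and 8.81% of all genes were, and 1 of each in BT mutant against BT WT, where 6.62% and 6.69% were. Plin2 was the 1 member called in BT mutant against PBS, higher by 1.76-fold (1.47 to 2.12), where 8.70% of all genes were higher and 8.87% lower.

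**Figure D5:**
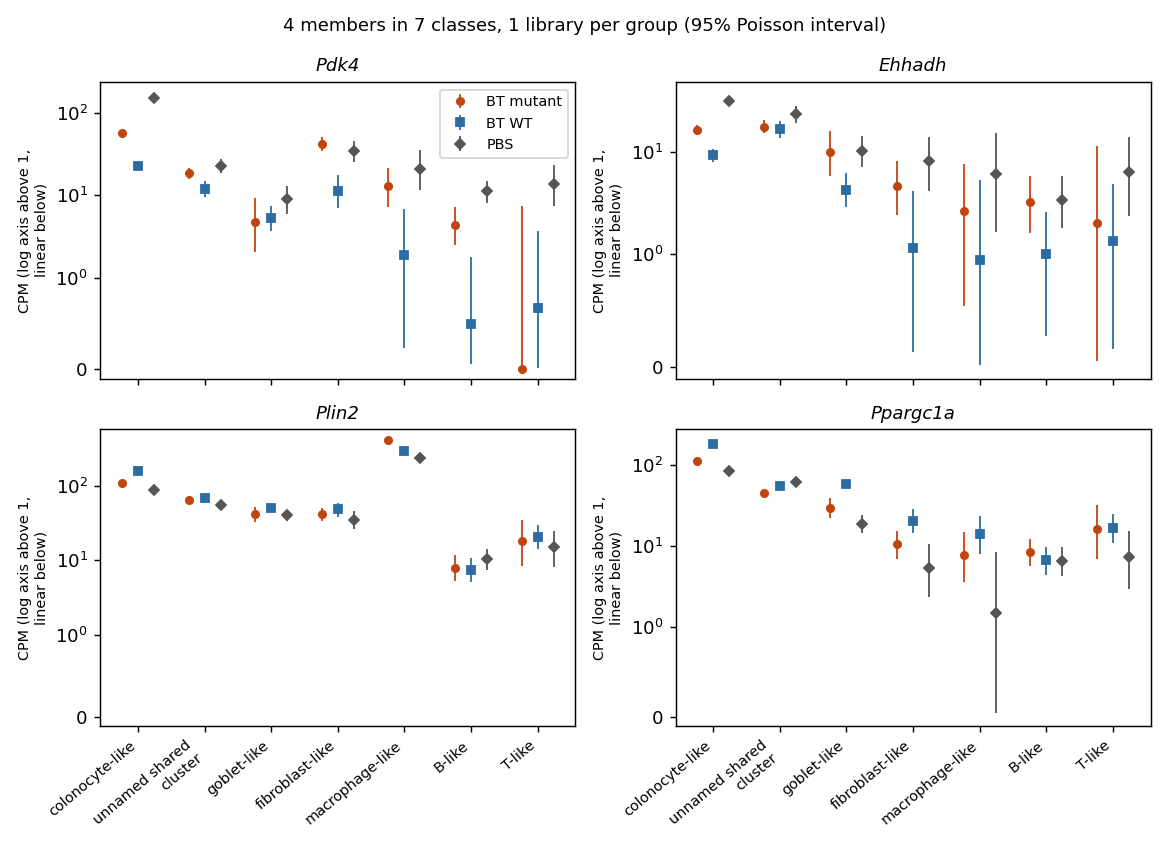
Level of Pdk4, Ehhadh, Plin2 and Ppargc1a in 7 classes, in CPM on an axis that is logarithmic above 1 and linear below, with BT mutant, BT WT and PBS from left to right in each class; bars are exact 95% Poisson intervals. Pdk4 is lowest in BT WT in colonocyte-like, shared-cluster, fibroblast-like, macrophage-like and B-like cells, and Plin2 is highest in macrophage-like cells.

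In goblet-like cells, the mucus makers, 3 members were lower and 2 higher in BT WT than in PBS, where 8.86% and 7.96% of all genes were. Hadh, at 158 CPM in BT mutant, 99.8 CPM in BT WT and 160 CPM in PBS, was among the lower ones with Echs1 and Acaa2. Ppargc1a had 29.6, 59.1 and 18.9 CPM and Slc25a20 51.5, 151 and 60.1 CPM. The colonocyte markers in these cells stood at 13.0%, 38.2% and 10.5% of their colonocyte-like level, and RNA in that proportion would carry 14.9, 69.6 and 8.92 CPM of Ppargc1a and 39.5, 135 and 42.5 CPM of Slc25a20. In the BT WT library Ppargc1a was below that level and Slc25a20 just above it. In BT mutant against BT WT 3 members were lower and 8 higher, where 10.0% and 13.0% of all genes were, and in BT mutant against PBS 0 of 32 were called, where 3.67% were lower and 3.15% higher. Hadh, 1 of the 8 higher members, stood at −1.50 after thinning to 1000 UMIs per cell. The 8 also included Acaa2 at 100.1 CPM in BT mutant, 53.1 CPM in BT WT and 98.9 CPM in PBS, and Eci1 at 71.1, 29.6 and 48.7 CPM. Inside goblet-like clusters 5 and 19 the mitochondrial median of BT mutant over BT WT was −0.12 and −0.08, beside −0.10 and −0.01 over all genes. Cluster 5 had 5 members lower and 0 higher, where 11.4% and 3.92% of all genes were. Cluster 19 had 0 lower and 1 higher, where 4.52% and 2.76% were. The 8 higher calls of the class were thus not found within either cluster.

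Genes of the same pathway that are not members were taken from lists. Of 31 other beta-oxidation and ketone body genes with enough UMIs in colonocyte-like cells, 12 were lower and 2 higher in BT WT than in PBS, where 7.34% and 14.0% of all genes were, with a median of −0.50. Scp2, a peroxisomal thiolase and sterol carrier, had 256 CPM in BT mutant, 140.1 CPM in BT WT and 346 CPM in PBS. In deep cells it had 342, 231 and 351 CPM, again lowest in BT WT. Of the 31 genes, 8 were higher and none lower in BT mutant than in BT WT, where 4.28% and 4.18% of all genes were. In BT mutant against PBS 3 were lower and none higher, where 3.98% and 6.0% of all genes were.

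Of 26 other PPAR and lipid-droplet genes, 9 were lower and 3 higher in BT WT than in PBS, with a median of −0.13, beside the same 7.34% and 14.0% of all genes. Cyp4b1, a fatty acid hydroxylase, had 50.3 CPM in BT mutant, 5.49 CPM in BT WT and 163 CPM in PBS. In deep cells it had 70.9, 13.6 and 163 CPM, the same order as Pdk4, and was 11.9-fold lower in BT WT than in PBS (9.55 to 15). Ppard, the remaining receptor of the family, was higher in BT WT, at 98.9, 133 and 69.1 CPM, and in deep cells at 97.6, 128 and 69.1 CPM. Of 17 peroxisome biogenesis genes, 2 were lower and 1 higher, which is near those shares of all genes. Cat, the catalase that removes the hydrogen peroxide of peroxisomal oxidation, had 29.0, 20.1 and 222 CPM, and 40.8, 43.1 and 227 CPM in deep cells, 5.27-fold lower in BT WT than in PBS (4.64 to 6.02). Of 14 fatty acid synthesis genes, 3 were lower and 1 higher, beside 7.34% and 14.0% of all genes.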

How the data were processed

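Droplet single-cell RNA-seq (10x Genomics) of mouse colon was used, with 1 library per group. The deposited values are raw UMI counts for each gene in each barcode, and per the file headers the software was Cell Ranger 5.0.0. Cell Ranger, STAR and the mm10 build are named in the submitters' processing notes. How barcodes were called, which gene annotation was used and whether doublets had been removed is not given in the sources used here.

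From these counts, cells with at least 300 genes and at most 25% mitochondrially encoded UMIs were kept. Scrublet called too few cells to be used, so doublets were kept, with removal at a fixed rate as an alternative. Cells were clustered on 2000 variable genes without the members (30 principal components, 15 neighbours, Leiden resolution 1.0; scanpy 1.11.5, leidenalg 0.10.2, scipy 1.17.1, Python 3.11.15), and clusters were named from 18 marker lists by a mean score of at least 1.5 with at least 3 markers detected. UMIs were summed per class and library and divided by the class total to give CPM, so small classes and low genes are the least precise. A ratio is the log2 of CPM plus 10, which understates the change of low genes. Folds and their exact conditional binomial intervals are without that addition. The intervals were also run on simulated Poisson counts with 200 altered genes. They covered the true fold for 95.65% of 11710 genes when BT WT was set against PBS. Coverage was 95.73% of 12130 genes when BT mutant was set against BT WT, and 95.71% of 11675 genes when BT mutant was set against PBS. Such counts follow the model that the intervals assume and hold no spread between cells or animals. This coverage therefore checks the calculation only. The level that colonocyte or fat-cell RNA would carry is that class's CPM times the share of its marker level found in the other class. It takes all of those markers in the other class as carried-over RNA, which was not tested. Gene positions are from GENCODE and promoter windows from RefSeq, both on GRCm38.

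Every member is accounted for by role, and genes of the other lists are named by the size of their ratio in either direction or their level. The members, lists and tests were chosen with earlier results of these data known. Some genes of these lists are not reported here.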

Additional observations from a re-analysis of the deposited data

How the results depend on the processing

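The values below are the median log2 ratio of the mitochondrial members, that of the peroxisomal members and the number of members called, in colonocyte-like cells. For BT WT over PBS these were −0.75, −0.81 and 21. They became −0.38, −0.49 and 12 with a mitochondrial limit of 10%, and −0.049, −0.32 and 7 in cells of at least 10000 UMIs. In the shared cluster they were 0.0088, −0.17 and 0. The medians were −0.46 and −0.50 with no mitochondrial limit, −1.04 and −1.04 with median-ratio scaling, −0.93 and −0.66 with equal weight per cell, and −0.95 and −0.54 after thinning to 1000 UMIs. The peroxisomal median was −1.02 with a pseudocount of 1 CPM, and the mitochondrial median −0.57 with libraries clustered apart. For BT mutant over BT WT the values were 0.40, 0.34 and 6. They became 0.11, 0.11 and 1 with equal weight per cell, 0.15, 0.031 and 3 after thinning, and −0.12, 0.043 and 0 in the shared cluster. The mitochondrial median was 0.023 with 3 called in cells of at least 10000 UMIs, 0.32 with no mitochondrial limit, and 0.53 with 10 called with median-ratio scaling. The peroxisomal median was 0.59 with 14 called at the 10% limit, and 0.57 with 15 called with a pseudocount of 1 CPM. The count was 11 with at least 1000 genes per cell and 14 with libraries clustered apart. For BT mutant over PBS the values were −0.35, −0.37 and 5. The medians turned to 0.060 and 0.022 at the 10% limit, and the mitochondrial median to 0.066 with 8 called with libraries clustered apart. They were −0.13 and −0.19 with no mitochondrial limit. All 3 values were −0.51, −0.51 and 11 with median-ratio scaling, −0.69, −0.64 and 19 with equal weight, −0.78, −0.55 and 16 after thinning, and −0.19, −0.15 and 1 in the shared cluster. The mitochondrial median was −0.0092 in cells of at least 10000 UMIs, and 8 members were called with a pseudocount of 1 CPM. Median-ratio scaling moved the median of all genes for BT WT over PBS to 0.00 from 0.11. Of single members called in colonocyte-like cells, BT WT over PBS changed sign at the 10% limit for Acadvl (0.16) and Hadha (0.20), in cells of at least 10000 UMIs for Hadha (0.024), Hadhb (0.077) and Etfb (0.060), and in the shared cluster for Acsl5 (0.0044), Cpt2 (0.062), Acadvl (0.10), Acadl (0.13), Hadha (0.022), Hadhb (0.21), Etfb (0.046) and Ppargc1a (−0.13). In the shared cluster Decr1 (−0.12, BT mutant over BT WT) and Acaa1b (0.10, BT mutant over PBS) did so. In other classes the sign changed for Hadh in goblet-like cells after thinning (−1.50, BT mutant over BT WT) and, with libraries clustered apart, for Acsl3 in B-like cells (0.15, BT mutant over PBS) and for Hadh and Echs1 in T-like cells, to 0.23 and 0.46 for BT mutant over BT WT and, with PBS as denominator, to 0.11 and 0.14. Across these settings, deep cells and the shared cluster aside, the share of all genes called lower ranged from 4.57% to 13.8% for BT WT over PBS, from 2.32% to 18.1% for BT mutant over BT WT, and from 2.62% to 13.0% for BT mutant over PBS. The share called higher ranged from 7.4% to 32.5%, from 2.08% to 9.54% and from 3.77% to 21.0% in the same order. The causes of these changes were not tested. The alternatives by depth, by the shared cluster and with the low-depth cluster were added after seeing the data. No paired analysis was possible because each group has 1 library. Depth limits Angptl4, Acaa1b, Acot1, Hacl1 and Acadsb most.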
